A study of Schizosaccharomyces pombe with 7 samples.

Results

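The stretch described here lay on chromosome III of fission yeast (Schizosaccharomyces pombe), just past the repeated ribosomal RNA genes of its left end. Its members were the array probes with both file coordinates between bases 23131 and 49970, a choice by position that used no measured signal. Of the 43993 probes, 536 were members, each of 60 bases and 1 every 50 bases, covering 26.8 kb. Base 23131 of the reference ASM294v3 is the first base past the last annotated 18S rRNA gene, so distances are counted from there, in kb from the ribosomal DNA. Where the repeat itself ends was not determined.

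The study followed newly made histone H3 in cells held in S phase with hydroxyurea (HU), a drug that starves DNA replication of nucleotides. Cells in minimal medium with 8% glucose at 30 °C received 15 mM HU for 4 h, and a switch to 4% sucrose for 2 h, with HU kept in, induced a FLAG-tagged H3. Chromatin bound to tagged H3 was immunoprecipitated (ChIP) and labelled with Cy5, and the whole-cell extract DNA, called input below, with Cy3 on all 7 arrays, with no dye swap. The 4 genotypes were wild type (3 arrays), fft3Δ (2 arrays), clr3Δ (1 array) and fft3Δ clr3Δ (1 array), all carrying the inducible H3-FLAG and all blocked with HU. The arrays sat on 3 slides. Slides 1 and 2 each held 1 wild-type and 1 fft3Δ array, and slide 3 held wild type replicate 3, clr3Δ and fft3Δ clr3Δ. The genes fft3 and clr3 were not measured, so the deletions could not be checked, and nothing in the labels says whether the repeated arrays stand for separate cultures. P-values below therefore measure the spread between arrays, which may be technical.

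Both ends of chromosome III carry tandem repeats of the ribosomal RNA genes, and parts of these arrays are packaged as heterochromatin marked by methylation of H3 at lysine 9. Clr3, a deacetylase of histone H3 within the SHREC complex, keeps heterochromatin hypoacetylated and low in histone exchange. Fft3 is an Snf2-family remodeller of the Fun30 type, known to act at heterochromatin and at the borders of silent domains.

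The 3 sequences of 240 bases below show the stretches on which the results turn, read from ASM294v3 (RefSeq) and printed 5′ to 3′ with 1 probe in capitals. The first (chr3:23131-23370, plus strand, 25.0% GC) begins at base 1 past the ribosomal DNA, and "inside" in its label means on the inner side of that DNA. It holds the probe with the lowest wild-type level of the lowest 1-kb window. The second holds the most raised probe of the 1-kb window with the largest rise in the double deletion, which lies between genes (chr3:27071-27310, plus strand). The third lies in the coding part of hsp3101, the gene with the highest wild-type level, and holds the highest wild-type probe whose printed neighbourhood is all coding (chr3:48171-48410, minus strand, as the gene runs).
first bases inside the ribosomal DNA: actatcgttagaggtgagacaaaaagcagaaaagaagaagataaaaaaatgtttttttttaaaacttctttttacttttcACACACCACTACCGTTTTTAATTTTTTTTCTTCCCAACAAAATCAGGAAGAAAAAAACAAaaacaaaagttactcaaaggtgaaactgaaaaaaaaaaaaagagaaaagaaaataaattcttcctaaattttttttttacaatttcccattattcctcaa
window of the largest rise: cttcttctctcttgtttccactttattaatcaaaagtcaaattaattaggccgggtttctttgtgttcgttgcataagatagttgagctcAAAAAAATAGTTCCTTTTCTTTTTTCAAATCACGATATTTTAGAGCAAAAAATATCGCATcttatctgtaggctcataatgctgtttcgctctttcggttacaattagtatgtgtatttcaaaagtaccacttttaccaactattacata
within hsp3101: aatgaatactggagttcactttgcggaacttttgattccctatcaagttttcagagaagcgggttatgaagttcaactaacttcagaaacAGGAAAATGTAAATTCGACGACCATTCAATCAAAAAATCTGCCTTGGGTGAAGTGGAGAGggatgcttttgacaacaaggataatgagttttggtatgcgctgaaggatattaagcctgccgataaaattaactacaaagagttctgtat

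In capitals, the first probe read −1.28, −1.73 and −1.17 in wild type, −1.69 and −1.37 in fft3Δ, −0.65 in clr3Δ and −0.69 in fft3Δ clr3Δ. The second read −0.04, −0.54 and −0.22 in wild type, 0.21 and −0.29 in fft3Δ, 0.45 in clr3Δ and 1.01 in the double deletion. At both of these probes the 2 arrays without clr3 lay above all 5 others. Both probes were picked by values of these same arrays, so their order describes them and tests nothing. The hsp3101 probe read 0.91, 0.91 and 0.53 in wild type, 1.32 and 0.90 in fft3Δ, 0.86 in clr3Δ and 0.96 in the double deletion, with the groups overlapping. It was picked by its high wild-type values, so this overlap tests nothing either. These values are log2 ratios of ChIP to input with the median probe of each array at 0, as are all ratios below.

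The probe in capitals of the first sequence occurs 5 times in the reference, that of the second 2 times and that of the third once. The same was true more widely: 187 of the 536 probes (34.9%) were repeated, meaning that their central 40 bases occurred more than once in the reference. Up to 8 kb from the ribosomal DNA 146 of 160 probes were repeated, and 139 of these had a copy in the last 50 kb of the same chromosome, at its other end. Past 8 kb 41 of 376 probes were repeated. Of all 187 repeated probes, 28 had a copy in the ribosomal DNA end. A repeated probe reads all its copies at once, so values in the first 8 kb cannot be assigned to the left end alone.

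Ratios of windows, genes and stretches are means over their probes. In wild type the mean ratio of all 536 probes was −0.08, −0.24 and −0.05 in replicates 1 to 3. It was 0.04 and −0.15 in the 2 fft3Δ arrays, 0.03 in clr3Δ and 0.45 in fft3Δ clr3Δ. The double deletion stood above every other array, while fft3Δ replicate 1 lay above the wild-type arrays and fft3Δ replicate 2 among them.

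**Figure D1:**
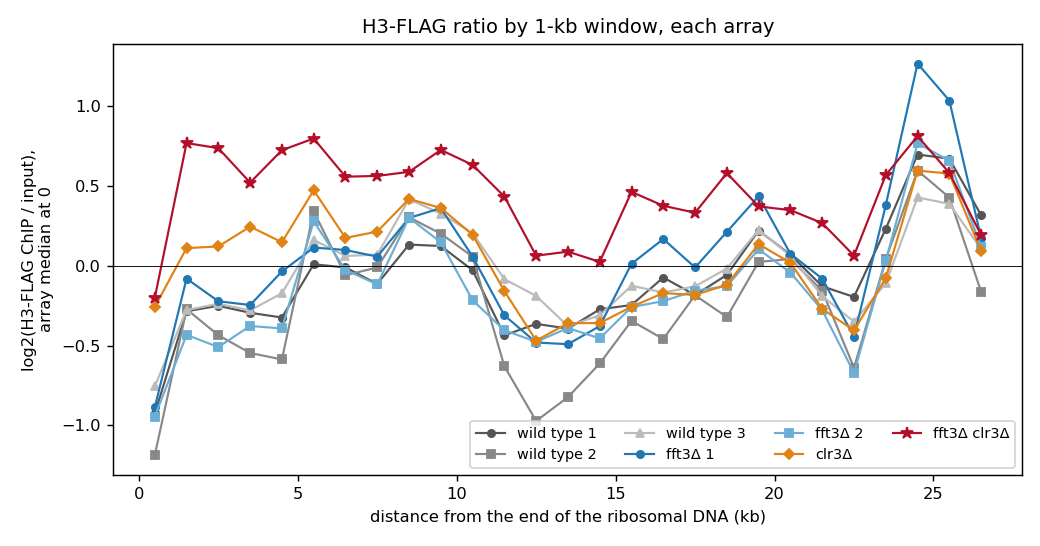
Log2 ratio of H3-FLAG ChIP to input (vertical axis, array median at 0) in 27 windows of 1 kb against distance from the ribosomal DNA in kb (horizontal axis), 1 line per array. The fft3Δ clr3Δ array was above all 3 wild-type arrays in 25 of the 27 windows, against 22.3% of all 2151 windows. All arrays shared a low first kilobase, a dip around 13 kb and a peak near 25 kb.

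The wild-type profile was uneven. The lowest of the 27 windows of 1 kb was the first one past the ribosomal DNA, at −0.93, −1.19 and −0.76 in replicates 1 to 3 (mean −0.96 ± 0.22, SD, n = 3). A second low stretch followed at 12 to 14 kb, where the windows had means of −0.51 ± 0.41 and −0.53 ± 0.25 (SD, n = 3). It holds SPNCRNA.6680 and new22, the latter a short protein-coding gene, at −0.59 ± 0.28 and −0.66 ± 0.19 (SD, n = 3). The highest windows lay at 24 to 26 kb, with means of 0.57 ± 0.14 and 0.49 ± 0.15 (SD, n = 3), and the third highest at 8 to 9 kb, with 0.28 ± 0.14. The lowest wild-type value in these windows at 24 to 26 kb was 0.39. They hold hsp3101, which codes for a glyoxalase III of the Hsp31 family that detoxifies methylglyoxal, at 0.72, 0.66 and 0.43. The overlapping noncoding RNA genes SPNCRNA.1099 and SPNCRNA.1100 had means of 0.48 ± 0.18 and 0.60 ± 0.14 (SD, n = 3). These genes share probes with hsp3101 and are not independent of it.

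The wild-type ratio was weakly graded by distance. A line through the 27 windows rose by 0.27, 0.18 and 0.12 log2 units per 10 kb in the wild-type arrays, but by 0.16, 0.08 and 0.05 once the last 3 windows, which include hsp3101, were left out. The GC content of the 536 probes averaged 32.9%, against 36.2% on the chromosome II arm. Across the 27 windows it varied with the wild-type ratio at a Pearson r of 0.38 and a Spearman rho of 0.37, a description of neighbouring windows that share fragments and probes of like composition. Against the double deletion's difference from wild type it stood at an r of −0.42 and a rho of −0.47 over the same windows, and at −0.08 and −0.13 over single probes. Over single probes its r with the wild-type ratio was 0.13. The part of base composition in the results was not tested.

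Of 26 genes annotated in the stretch 25 were measured with at least 2 probes: 17 noncoding RNA genes, 7 protein-coding genes and 1 pseudogene. Of the 25, 19 shared a probe with another. The 7 protein-coding genes ranged in wild type from −0.66 (new22) to 0.60 (hsp3101), with a median of −0.17. The 17 noncoding RNA genes ranged from −0.92 (SPNCRNA.1094, the first gene from the ribosomal DNA) to 0.60, with a median of 0.01. The highest wild-type level among the genes of the first 8 kb was that of SPCP20C8.01C, an uncharacterised protein-coding gene, at 0.25 ± 0.19 (SD, n = 3).

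No window or gene of the stretch passed the test for loss of fft3 alone. The mean over the stretch was 0.07 ± 0.08 log2 units (SE) above wild type, with an adjusted p of 0.759 by limma over 80 stretches of like length, and the exact two-sided permutation p was 0.6 where 2 arrays against 3 cannot go below 0.1. Without pairing by slide, the direction of this difference rests on fft3Δ replicate 1: it was −0.031 without that array and 0.16 without fft3Δ replicate 2. Paired by slide, the fft3Δ array exceeded its wild-type partner by 0.12 on slide 1 and by 0.08 on slide 2. None of the 27 windows was called by limma after Benjamini-Hochberg adjustment at 0.05 (0.0% of all 2151 windows did, in either direction), and 2 were higher at an unadjusted p under 0.05 (2.56% of all windows). None of the 25 genes passed (0.0% of 2182 genes, in either direction). By gene class the median difference was 0.08 for the noncoding RNA genes and 0.01 for the protein-coding genes, against 0.00 for all genes.

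The largest fft3Δ differences sat together at 24 to 26 kb. SPNCRNA.1099 was at 0.69, 0.38 and 0.38 in wild type and at 1.18 and 0.78 in fft3Δ, a difference of 0.50 ± 0.16 (SE, limma, adjusted p = 0.995). Its 2 fft3Δ arrays did not overlap with wild type. The gene hsp3101 read 0.72, 0.66 and 0.43 in wild type against 1.28 and 0.75 in fft3Δ, a difference of 0.41 ± 0.17 (SE, limma, adjusted p = 0.999), and SPNCRNA.1100 differed by 0.40 ± 0.16. For hsp3101 most of the difference came from slide 1, where fft3Δ was 0.56 above its partner, against 0.09 on slide 2. Both fft3Δ arrays exceeded all wild-type arrays at these 3 genes and at no other of the 25. That share is close to the 9.12% of all genes where they did so. SPNCRNA.1099 and SPNCRNA.1100 also share probes with hsp3101, so the 3 genes are not independent. The lowest differences were those of SPNCRNA.6678 (−0.08), SPCP20C8.02C (−0.08), an uncharacterised protein-coding gene, and SPCC757.02C (−0.06), annotated as an epimerase, each less than its standard error.

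The design also asks whether the ratio changes with distance from the ribosomal DNA. The slope over the 27 windows was 0.28 and 0.22 per 10 kb in fft3Δ, 0.06 steeper than in wild type (exact permutation p = 0.4, n = 2 and 3). That difference was 0.01 without the last 3 windows (exact permutation p = 0.8), and ran from 0.02 without wild type replicate 3 to 0.10 without wild type replicate 1. In clr3Δ and in fft3Δ clr3Δ the line ran the other way, at −0.04 and −0.07 per 10 kb. The ratio of the stretch minus that of the neighbouring ribosomal DNA probes was 0.49 in both genotypes (exact permutation p = 1). Its excess over the right subtelomere of chromosome II was 0.47, 0.51 and 0.56 in wild type but 0.20 and 0.04 in fft3Δ (exact permutation p = 0.1, the smallest possible for 2 against 3 arrays). The groups did not overlap there, and the difference of −0.40 in that excess came with a subtelomere whose ratio was 0.46 above wild type in fft3Δ.

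The clr3Δ array differed most from wild type in the first kilobases. Up to 8 kb the mean ratio was −0.28, −0.35 and −0.18 in wild type, −0.15 and −0.32 in fft3Δ, and 0.15 in clr3Δ, 0.42 ± 0.09 (SE) above wild type with a limma adjusted p of 0.0741, which misses the threshold. Past 8 kb it was 0.00, −0.19 and 0.00 in wild type and −0.03 in clr3Δ, 0.04 ± 0.11 above wild type. The single clr3Δ array was above all 3 wild-type arrays in 8 of the 8 windows up to 8 kb and in 3 of the 19 windows past it, against 21.8% of all windows. The split at 8 kb was chosen after the profile had been seen, so the p-value and counts on either side do not test a change there. The ratio up to 8 kb minus that past 8 kb was −0.28, −0.16 and −0.18 in wild type and −0.27 and −0.23 in fft3Δ, but 0.18 in clr3Δ and 0.17 in fft3Δ clr3Δ.

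**Figure D2:**
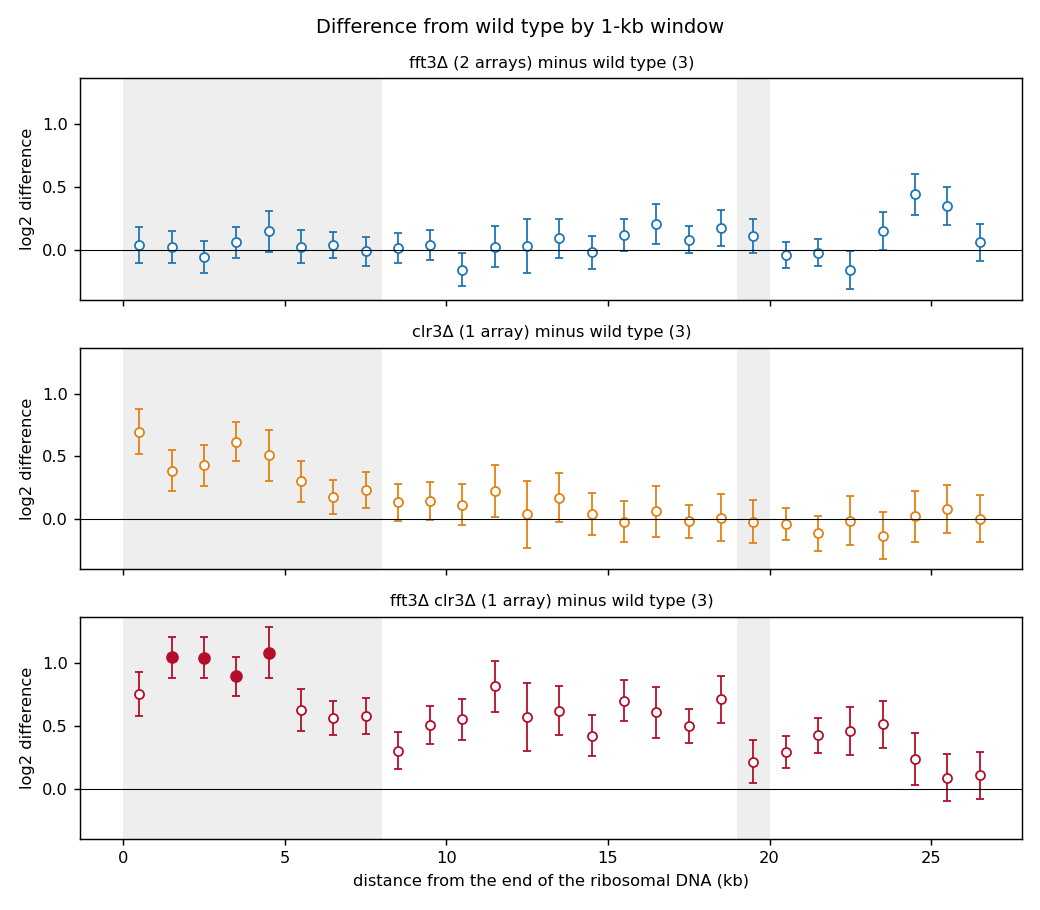
Log2 difference from wild type (vertical axes) in 1-kb windows against distance from the ribosomal DNA in kb (horizontal axis) for fft3Δ, clr3Δ and fft3Δ clr3Δ, with limma standard errors. Filled points passed at an adjusted p under 0.05, and grey bands mark windows with more than 50% repeated probes. The 4 called windows lie at 1 to 5 kb in the double deletion, while its difference stayed above 0 to the last window.

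None of the 27 windows passed for clr3Δ against wild type (1.39% of all windows rose and 0.0% fell). At an unadjusted p under 0.05 there were 5 (4.46% of all windows), with differences of 0.39 to 0.70, and these were the first 5 from the ribosomal DNA. The first window, at −0.96 in wild type, was at −0.26 in clr3Δ, a difference of 0.70 ± 0.18 (SE, limma, adjusted p = 0.207). None of the 25 genes passed, while 1.42% of all genes rose and 0.0% fell. The 3 highest differences belonged to the 3 genes nearest to the ribosomal DNA. SPNCRNA.1094 was at −0.98, −1.11 and −0.69 in wild type and −0.20 in clr3Δ, a difference of 0.72 ± 0.17 (SE, limma, adjusted p = 0.147). The noncoding RNA gene SPNCRNA.1095 was at −0.42, −0.50 and −0.31 in wild type and 0.30 in clr3Δ, a difference of 0.71 ± 0.17 (adjusted p = 0.149 by limma). SPCP20C8.01C differed by 0.25 ± 0.17. At these 3 genes the clr3Δ array was above every wild-type array. Further in, the differences were −0.07 for nic1, a plasma membrane nickel transporter, −0.06 for SPNCRNA.6684, −0.03 for SPCC757.02C and 0.02 for hsp3101.

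The double deletion fft3Δ clr3Δ was higher than wild type along the stretch. Its mean was 0.57 ± 0.10 log2 units (SE) above wild type, with a limma adjusted p of 0.0214, while 7.5% of the 80 stretches rose and 11.2% fell. Against wild type replicate 3, on the same slide, the difference was 0.50. Without wild type replicate 1 the call was lost, at 0.59 with an adjusted p of 0.0819. The 349 probes found once in the reference gave 0.48 (adjusted p = 0.0442). The difference was 0.83 ± 0.09 up to 8 kb and 0.46 ± 0.11 past 8 kb, a split chosen after the profile had been seen.

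By window, 4 of 27 passed, all upward, against 3.3% of all 2151 windows that rose and 0.79% that fell, and 20 were higher at an unadjusted p under 0.05 (6.37% of all windows). The 4 lay at 1 to 5 kb, from within SPNCRNA.1095 to short of SPCP20C8.01C, with differences of 1.05 ± 0.16, 1.04 ± 0.16, 0.89 ± 0.16 and 1.08 ± 0.20 (SE). Their adjusted p-values by limma ran from 0.00892 to 0.0211. The window at 4 to 5 kb, which holds the probe of the second sequence, was at −0.32, −0.59 and −0.17 in wild type, −0.04 and −0.39 in fft3Δ, 0.15 in clr3Δ and 0.72 in the double deletion. Of the 80 probes of these 4 windows 78 were repeated. The windows at 2 to 5 kb held only repeated probes, so they could not be tested at probes found once. In the window at 1 to 2 kb 18 of 20 probes were repeated, so its test there rested on the few left. That set left 23 windows with any probe, of which 1 passed. The minimum of 5 probes was not applied again there. The array was above all 3 wild-type arrays in 25 of the 27 windows, against 22.3% of all windows, and above wild type replicate 3, its slide partner, in 27 of 27 (41.1% of all windows). The smallest differences, 0.09, 0.11 and 0.21, were those of the windows at 25 to 26, 26 to 27 and 19 to 20 kb.

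By gene, 1 of 25 passed, against 3.16% of all 2182 genes that rose and 0.962% that fell, and 18 were higher at an unadjusted p under 0.05 (5.91% of all genes). The gene that passed was SPNCRNA.1095, the second from the ribosomal DNA, at 0.63 in the double deletion and 1.04 ± 0.17 (SE, limma, adjusted p = 0.00990) above wild type. It was also above both fft3Δ arrays, at −0.07 and −0.45, and above the clr3Δ array, at 0.30. Its 9 probes were all repeated, and with loess normalization within arrays its difference fell to 0.48 and did not pass. Next in size were SPNCRNA.1094, with 0.76 ± 0.17, and new22, with 0.68 ± 0.22, at 0.02 in the double deletion, neither of which passed (limma, adjusted p = 0.0554 and 0.203). Over 20 alternatives SPNCRNA.1094 ran from 0.19 (loess) to 0.97 (normexp) and passed in 7, with adjusted p-values of 0.0216 to 0.558, while new22 ran from 0.22 to 0.74 and passed in none.

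The differences from wild type of the 7 protein-coding genes ran from 0.13 to 0.68, with a median of 0.49. Those of the 17 noncoding RNA genes ran from 0.07 to 1.04, with a median of 0.51, and the pseudogene SPCP20C8.03 differed by 0.50, where the median of all 2182 genes was −0.04. The gene nic1, at −0.05, −0.24 and −0.21 in wild type, was at 0.33 in the double deletion, a difference of 0.49 ± 0.15 (SE, limma, adjusted p = 0.170). SPCC757.02C, which overlaps nic1 on the other strand, differed by 0.51 ± 0.17. The array was above all 3 wild-type arrays at 22 of the 25 genes, against 22.4% of all genes. The exceptions were SPNCRNA.1100, SPNCRNA.6685 and SPNCRNA.451, at the far end, with differences of 0.07, 0.12 and 0.24. At hsp3101 the double deletion read 0.73, against 0.72 in the highest wild-type array and 1.28 and 0.75 in fft3Δ.

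Probes were also sorted by the protein-coding genes around them. The 103 probes between the ribosomal DNA and SPCP20C8.01C averaged −0.41, −0.60 and −0.34 in wild type, −0.29 and −0.52 in fft3Δ, 0.08 in clr3Δ and 0.52 in the double deletion, so that both arrays without clr3 were above the 5 others. The 174 probes within protein-coding genes averaged −0.03 ± 0.04 in wild type (SD, n = 3), 0.01 in clr3Δ and 0.42 in the double deletion. The 127 probes of divergent gaps averaged −0.03 ± 0.17, 0.09 and 0.43 in the same order, and the 125 probes of tandem gaps −0.12 ± 0.13, −0.06 and 0.41. In these 3 classes the double deletion was above all 6 other arrays. Of the other mutant arrays, fft3Δ replicate 1 was also above all wild-type arrays within genes, at 0.09, and in tandem gaps, at 0.12. The only convergent gap, between nic1 and hsp3101, held 7 probes, at 0.44 ± 0.13 in wild type, 1.09 and 0.63 in fft3Δ, 0.23 in clr3Δ and 0.69 in the double deletion.

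**Figure D3:**
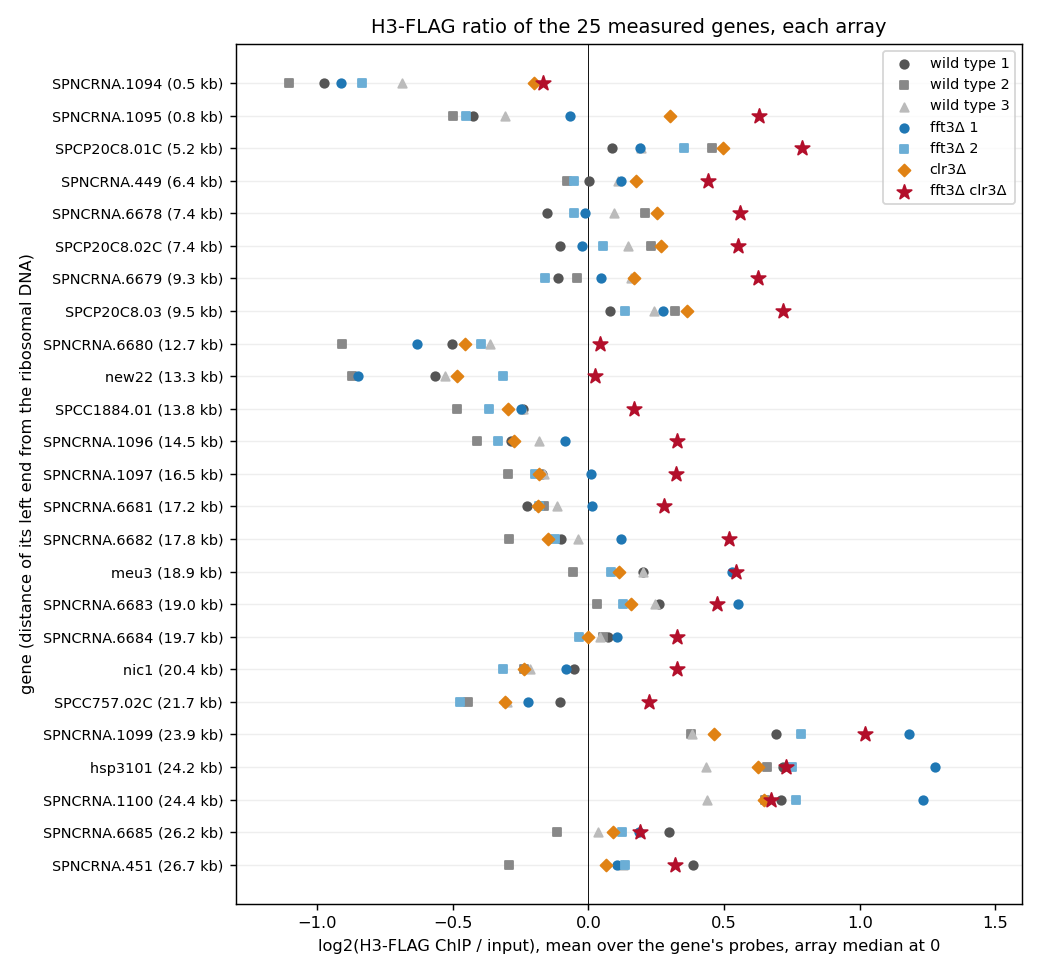
Log2 ratio of H3-FLAG ChIP to input (horizontal axis, mean over the probes of a gene, array median at 0) of the 25 measured genes, ordered by distance of the gene's left end from the ribosomal DNA (vertical axis), 1 point per array. The star of fft3Δ clr3Δ is the rightmost point for every gene up to 22 kb except SPNCRNA.6683, and the fft3Δ arrays are the highest at hsp3101.

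The stretch holds 4 annotated long terminal repeats (LTRs), the ends that retrotransposons leave behind. The LTR at 3.2 kb from the ribosomal DNA was 0.77 higher in the double deletion and 0.58 higher in clr3Δ than in wild type. All 6 of its probes were repeated. The one at 8.6 kb was 0.15 higher in the double deletion and 0.20 higher in clr3Δ. The LTRs at 20.0 and 26.1 kb differed by −0.09 each in the double deletion and by 0.05 and −0.02 in clr3Δ. Their wild-type SDs were 0.11 and 0.22. The LTR at 20.0 kb had probes with up to 68 copies in the reference, so its value averages many places.

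Taking fft3 away where clr3 was already absent was compared on 1 slide, with 1 array each. The double deletion was above clr3Δ by 0.42 ± 0.13 (SE) over the stretch, with a limma adjusted p of 0.223. With slide as a random block the same difference passed, at an adjusted p of 0.0291 by limma, and over all alternatives the adjusted p ran from 0.00763 to 0.349. The difference was 0.41 up to 8 kb and 0.42 past 8 kb. All 27 windows and all 25 genes were higher in the double deletion than in clr3Δ, against 46.5% of all windows and 46.5% of all genes. None of them passed, in a comparison where 0.0% of windows and of genes rose and 0.093% of windows and 0.0917% of genes fell, while 10 windows were higher at an unadjusted p under 0.05 (3.49% of all windows). The 3 highest differences were those of SPNCRNA.6682 (0.67 ± 0.20), SPNCRNA.1096 (0.60 ± 0.19) and nic1 (0.56 ± 0.18), which lie at 14 to 24 kb. The 3 lowest were those of SPNCRNA.1100 (0.02), SPNCRNA.1094 (0.03) and SPNCRNA.6685 (0.10), at the 2 ends of the stretch. At SPNCRNA.1094 clr3Δ alone was already at −0.20, and the double deletion at −0.17.

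The difference between the effect of losing fft3 with and without clr3, the interaction, was 0.35 ± 0.15 (SE) over the stretch (limma, adjusted p = 0.252). None of the 27 windows or 25 genes passed for it (0.0% of all windows and of all genes). By gene it was highest at SPCC757.02C (0.60 ± 0.25), nic1 (0.59 ± 0.22) and SPNCRNA.6682 (0.53 ± 0.23). It was lowest at SPNCRNA.1100 (−0.38 ± 0.29), hsp3101 (−0.31 ± 0.31) and SPNCRNA.1094 (−0.02 ± 0.25). At hsp3101 the difference from wild type was 0.41 in fft3Δ and 0.13 in fft3Δ clr3Δ.

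A ratio can rise through either channel, so ChIP and input were also compared apart, each centred on its array. Over the stretch the ChIP signal of the double deletion was 0.89 above wild type (limma, adjusted p = 0.00121 over the 80 stretches). Its input was 0.29 above wild type (limma, adjusted p = 0.611). In ChIP 8 of the 27 windows rose and none fell (3.49% and 0.093% of all windows). In input 1 of the 27 rose (0.232% of all windows), the first one, at −0.41, −0.47 and −0.74 in wild type and 2.05 in the double deletion. Its ratio difference of 0.75 thus stood on an input 2.59 higher and a ChIP signal 3.38 higher. The input difference of the double deletion was 1.06 at 1 to 2 kb and 0.51 at 4 to 5 kb, with a median of 0.60 over the 8 windows up to 8 kb and of 0.08 over the 19 past it. Among the ribosomal DNA probes themselves the input ranged from −0.17 (wild type replicate 3) to 1.46 in the 6 other arrays and was 2.39 in the double deletion. The part of the input in the result near the ribosomal DNA was not tested. Past 8 kb the ratio was 0.46 higher in the double deletion with a median input difference of 0.08.

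**Figure D4:**
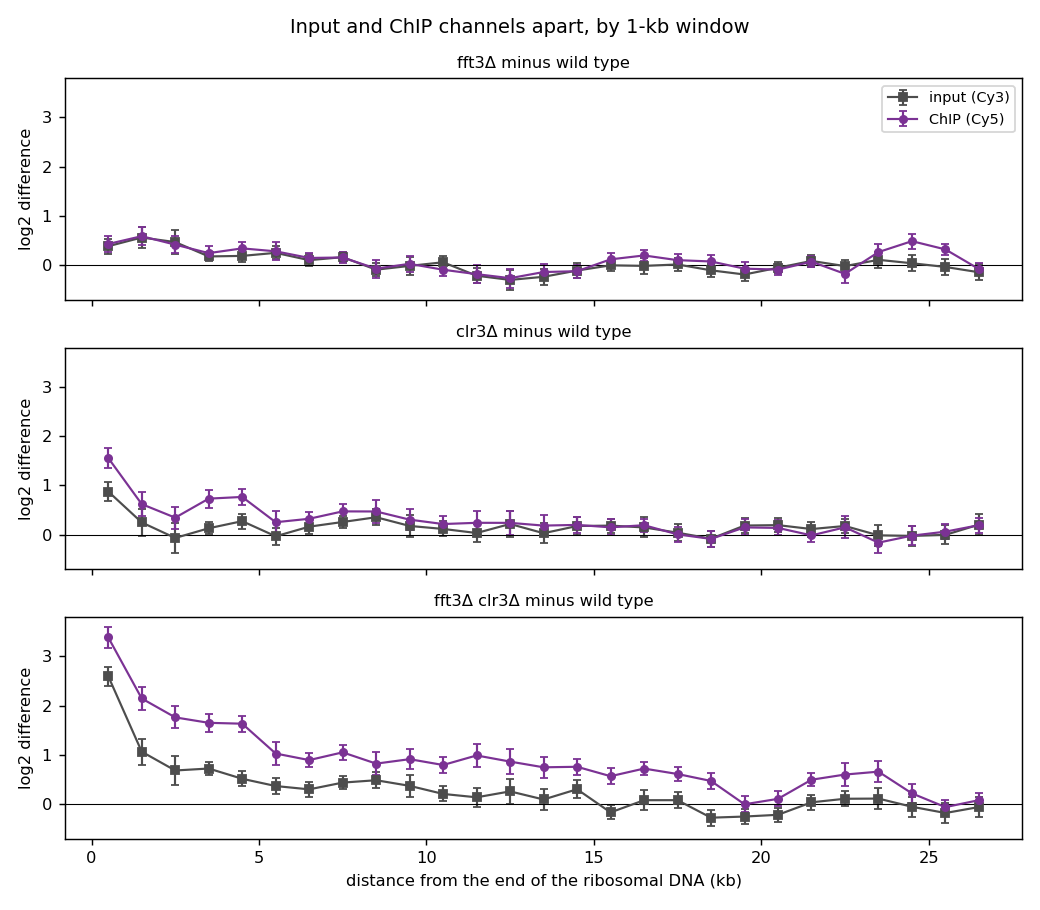
Log2 difference from wild type of input (squares) and of ChIP (circles), each centred on its array (vertical axes), in 1-kb windows against distance from the ribosomal DNA in kb (horizontal axis), with limma standard errors. In fft3Δ clr3Δ both channels are higher toward the ribosomal DNA, the input by 2.59 and the ChIP by 3.38 in the first window, while past 8 kb the ChIP lies above an input whose median difference is 0.08.

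For clr3Δ the first window had an input 0.88 and a ChIP signal 1.56 above wild type, while the input of the other windows up to 8 kb differed by −0.06 to 0.28. For fft3Δ input and ChIP moved together in the first 3 kb, the input by 0.39, 0.57 and 0.47 and the ChIP by 0.44, 0.59 and 0.42, and the ratio by 0.04, 0.02 and −0.06. At 24 to 25 kb the fft3Δ input differed by 0.05 and its ChIP signal by 0.49.

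The same arrays covered other stretches of chromosomes II and III. In wild type the stretch stood 0.49 ± 0.16 above the ribosomal DNA end, 0.51 ± 0.05 above the right subtelomere of chromosome II and 1.25 ± 0.05 above the outer repeats of centromere 2, but 0.19 ± 0.10 below the arm of chromosome II (SD, n = 3). The central core of centromere 2 was the lowest of these stretches, at −3.03 ± 0.32 in wild type. In clr3Δ the ribosomal DNA end was 0.59 above wild type (limma, adjusted p = 0.0192), where the stretch differed by 0.15. In the double deletion the ribosomal DNA end was 0.66 above wild type (limma, adjusted p = 0.00561), the subtelomere 0.95, the outer repeats 1.91 and the central core 0.81. The arm differed by −0.07. The double deletion minus clr3Δ was 0.42 in the stretch, 0.06 at the ribosomal DNA end, 0.36 in the subtelomere and 0.75 in both the outer repeats and the central core. By single probe, 87.3% of the stretch's 527 probes with an unmarked spot on all 7 arrays were above all 3 wild-type arrays in the double deletion, against 59.8% at the ribosomal DNA end, 87.1% in the subtelomere, 98.4% in the outer repeats, 92.3% in the central core and 19.4% on the arm. These comparisons between stretches share arrays and were not tested.

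**Figure D5:**
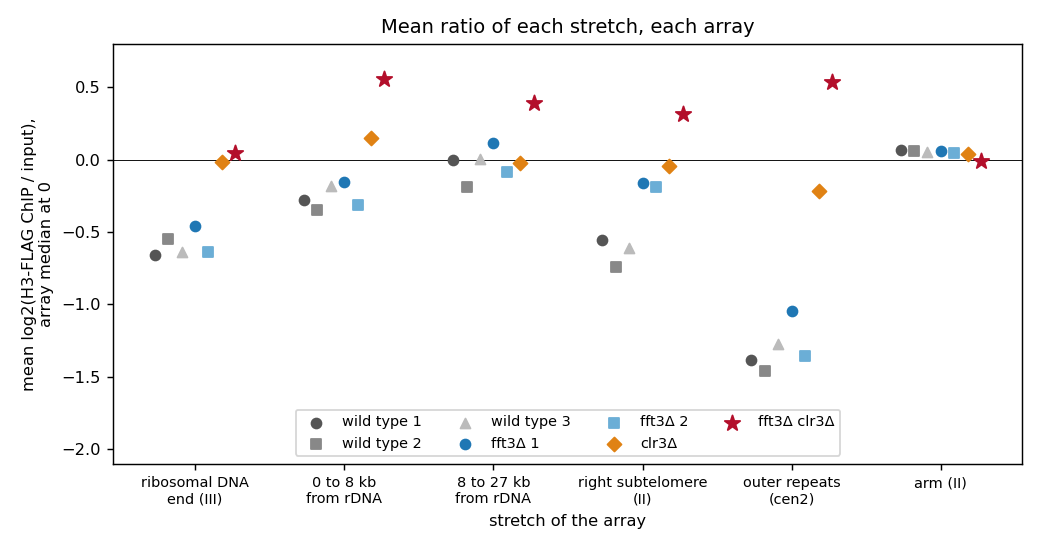
Mean log2 ratio of H3-FLAG ChIP to input (vertical axis, array median at 0) of 6 stretches of the array (horizontal axis), 1 point per array. From 8 to 27 kb from the ribosomal DNA the fft3Δ clr3Δ array is at 0.40 and the next highest, fft3Δ replicate 1, at 0.12, whereas at the ribosomal DNA end and up to 8 kb the clr3Δ array lies above wild type as well.

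The quality of the arrays sets a limit on these values. Between 99.44% and 99.95% of probes were well above background in each channel, and 532 to 535 of the 536 probes were so in both. No spot was saturated. The double deletion had the most spots marked as nonuniform or outlying, 929 of all probes and 5 of the 536, and its profile correlated with wild type over all probes at 0.46 to 0.52, where wild-type arrays correlated with each other at 0.75 to 0.86. Its single array and that of clr3Δ were assumed to vary like those of wild type and fft3Δ.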

How the data were processed

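The 7 arrays are Agilent 2-colour tiling arrays of 60-base probes. The intensities were deposited as processed signals, with background subtraction and linear dye normalization per the file headers, by Agilent Feature Extraction 10.7.3.1 (slide 1) or 12.0.3.1 (slides 2 and 3). The deposited series table of log2 ratios equals their ratio to within 4.9e-08, and the deposited log10 ratio agrees within 0.001 on 99.94% of spots. Spots are marked nonuniform or outlying by deposited flags of 0 or 1. No source used here gives the build. At an offset of 0 bases the input signal of the 536 probes followed the base composition of ASM294v3 at a correlation of 0.616, against 0.252 at the next offset of the 50-base scan.

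Ratios were centred on each array's median, marked spots left out, and averaged over windows of 1 kb (at least 5 probes), genes (at least 2 probes) and 80 stretches. Each whole table was fitted in R 4.3.3 by limma 3.58.1 with a mean per genotype over 7 arrays, Benjamini-Hochberg adjusted. Array deviations of wild type and fft3Δ on a shared slide correlated at 0.586 and 0.35, and these 2 pairs carry the same replicate numbers. With 2 fft3Δ arrays the deviations from their mean mirror each other, so the crossed pairs read −0.586 and −0.35 by construction. The 2 correlations are therefore not separate evidence for pairing by slide. The clr3Δ and fft3Δ clr3Δ arrays share slide 3 with wild type replicate 3, per the file headers. The members, lists and naming rule (called genes, the 3 highest and 3 lowest differences per comparison, the 4 highest and 4 lowest wild-type levels, the first and last gene) were chosen with earlier results of these data known. Alternatives were background correction, normalization, filters, summaries, slide, window size, single arrays left out and the parts up to and past 8 kb. One further sequence is not reported here.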

Additional observations from a re-analysis of the deposited data

Results flagged for a closer look

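At 2 genes of the stretch the 2 fft3Δ arrays were below their slide partners of wild type while fft3Δ clr3Δ was above clr3Δ. The share of all genes with this order was not counted, so the 2 genes are only described. The second part of it held at all 25 genes of the stretch and at 46.5% of all genes. At nic1 the differences were −0.03 and −0.08 on slides 1 and 2 and 0.56 on slide 3. At SPCC757.02C, which overlaps nic1 on the other strand and shares its probes, they were −0.12 and −0.03 against 0.53. The interaction was 0.59 ± 0.22 (SE) and 0.60 ± 0.25 and did not pass the limma test over all genes, at adjusted p-values of 0.674 and 0.710.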

How the results depend on the processing

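The rise of the double deletion over the stretch kept its direction under 22 alternatives, which included its parts up to and past 8 kb. Those parts gave the ends of the range, 0.83 and 0.46. Among the alternatives with a test, only the one without wild type replicate 1 missed the threshold. The difference within slide 3, at 0.50, had no test. With single arrays left out the rise ran from 0.51 to 0.61. Its windows called were 4, and 10 with loess, 14 with quantile normalization, 12 with arrays scaled to equal spread, 11 with slide as a random block, 8 in windows of 500 bases, 1 at probes found once and 4 to 6 with single arrays left out. Its genes called were 1, and 5 with normexp, 3 with loess, 8 with quantile normalization, 7 with equal spread, 2 centred on the arm, 0 at probes found once, 2 with medians over probes, 7 with the random block and 1 to 3 with single arrays left out. The clr3Δ deletion called 1 gene with normexp, SPNCRNA.1094. Double deletion minus clr3Δ passed with quantile normalization (0.52, adjusted p = 0.0226 by limma) and the random block (0.42, adjusted p = 0.0291 by limma), and without either fft3Δ array (0.42). The interaction ran from 0.26 to 0.45 with single arrays left out and passed without fft3Δ replicate 1. The fft3Δ difference was −0.031 without fft3Δ replicate 1 and ran from −0.031 to 0.16 with single arrays left out, never passing. The causes were not tested.

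The fft3Δ difference between the stretch and the ribosomal DNA end, at −0.0005, had no stable sign: it was 0.031 with normexp, 0.033 with quantile normalization, 0.00077 with marked spots kept, 0.00044 at probes well above background, 0.031 with medians, 0.18 within slide 2 and −0.091 to 0.047 with single arrays left out. The input difference of fft3Δ was −0.067 with normexp, −0.043 at probes found once and −0.046 to 0.14 with single arrays left out. Input windows called in any contrast were 1, and 10 with slide as a block, 2 with the random block, 2 in windows of 500 bases, 0 in windows of 2 kb, 0 at probes found once and 0 to 2 with single arrays left out. With slide as a replicate block, which pairs wild type and fft3Δ by number on slides 1 and 2 and sets the other mutants beside wild type replicate 3, the region mean differences were 0.10 for fft3Δ, 0.08 for clr3Δ and 0.50 for the double deletion (adjusted p = 0.0268 by limma), and the stretch minus ribosomal DNA difference was 0.047. The block changed no other call. Double minus clr3Δ and the interaction could not be fitted on their own groups, the lone clr3Δ and double deletion arrays could not be left out, and no slide held all 4 genotypes.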
